A study of Mus musculus with 9 samples.

Results

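The 10 keratin genes considered here, of the outer root sheath, the sebaceous duct and simple epithelia, were followed across the compartments of mouse tail epidermis. They were chosen by name (Krt6a, Krt6b, Krt16, Krt17, Krt75, Krt79, Krt7, Krt8, Krt18 and Krt19), and 8 of the 10 were measured among 14507 genes. Krt6b and Krt8 had no probe set (an exon-level unit of the array) annotated to them, alone or together with other genes, and are not analysed here. Whether the Krt6a probe sets also detect Krt6b transcript was not tested. Pieces of sebaceous gland (SG), of hair follicle (HF) or of the epidermis between follicles (IFE, interfollicular) had been dissected by hand from tail epidermis of adult, age-matched female mice, wild type and of C57BL6/CBA background, with no treatment named. Each sample pooled dissected pieces, with 3 biological replicates per compartment and 9 exon arrays in all. Levels below are log2 of the deposited signal, as the median over a gene's probe sets, and an SD is over the 3 arrays of a compartment. Differences and their SEs come from limma, with Benjamini-Hochberg adjustment over all 14507 genes. A gene was called higher or lower where the adjusted p was below 0.05 and the log2 difference reached 1.

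Keratins form the intermediate filaments of epithelial cells, and each filament is built from a type I and a type II partner. Krt6a and Krt75 (type II) and Krt16 and Krt17 (type I) are known from the outer root sheath and the companion layer that lies inside it, and Krt6a, Krt16 and Krt17 are also switched on in wounded or hyperproliferative epidermis. Krt79 (type II) marks the infundibulum and the sebaceous duct of mouse skin. Krt7 and Krt8 (type II) and Krt18 and Krt19 (type I) belong to simple and glandular epithelia, and Krt8 and Krt18 are also made by the Merkel cells of skin, while Krt19 is known from the follicle bulge.

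Titles and array names of the samples disagreed about the compartment, so groups were taken as titled and set against marker lists. The summed signal of 13 sebocyte genes was 26811 to 35790 on SG arrays, 6014 to 9912 on HF arrays and 2743 to 3781 on IFE arrays. For 14 hair shaft and inner root sheath genes it was 2625, 3277 and 17250 on SG replicates 1, 2 and 3, 40625 to 66753 on HF arrays and 2891 to 3831 on IFE arrays. For 8 suprabasal epidermal genes it was 23893 to 30000 on SG arrays, 23583 to 28675 on HF arrays and 51064 to 62516 on IFE arrays. Each list was thus highest on all arrays of its titled compartment, and SG replicate 3 carried more hair shaft signal than the other SG arrays.

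The genes lie in the keratin clusters of the mouse genome. In the RefSeq annotation of assembly GRCm38.p6, used for names and gene order alone, Krt7, Krt75, Krt6b, Krt6a, Krt79, Krt8 and Krt18 follow each other in that order on chromosome 15, with 0 protein-coding genes between Krt6b and Krt6a and 0 between Krt8 and Krt18. Krt19, Krt16 and Krt17 follow each other on chromosome 11, with 0 protein-coding genes between Krt16 and Krt17. Promoters of 5 of the 10 genes were in the RefSeq table (GRCm38.p6). Those of Krt79 and Krt75 are shown because these members of the type II cluster had different patterns over the compartments. The letters are the 250 bases before the annotated start, read 5′ to 3′ on the minus strand of both genes, at chr15:101940325-101940574 for Krt79 and chr15:101573905-101574154 for Krt75, and capitals mark motif matches.
Krt79: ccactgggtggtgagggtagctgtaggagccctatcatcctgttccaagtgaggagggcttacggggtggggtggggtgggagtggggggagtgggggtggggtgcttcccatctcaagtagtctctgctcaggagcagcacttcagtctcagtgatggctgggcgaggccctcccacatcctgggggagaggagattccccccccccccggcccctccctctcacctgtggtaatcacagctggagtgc
Krt75: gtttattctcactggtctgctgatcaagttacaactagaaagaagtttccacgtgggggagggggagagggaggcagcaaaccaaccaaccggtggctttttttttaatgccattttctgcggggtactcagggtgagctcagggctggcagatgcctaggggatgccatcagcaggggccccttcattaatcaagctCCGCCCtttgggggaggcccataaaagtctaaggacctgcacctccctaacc
The 5 motifs were searched on both strands. The AP-1 motif was spelled TGANTCA and the GATA motif was spelled AGATAA. The TATA box was spelled TATAAA and the GC box was spelled GGGCGG. The last motif was spelled CCAAT. The Krt75 window held 1 match, to the GC box, 52 bases before the start, and the Krt79 window held 0. Of 32851 promoter windows of this length in the table, 32.7% held the GC box, 6.7% AP-1, 10% GATA, 12.4% the TATA box and 33.8% CCAAT.

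Of the 8 measured keratins, 6 (Krt6a, Krt16, Krt17, Krt75, Krt79 and Krt18) passed the moderated F test of limma over the 3 compartments, as did 24.5% of all genes (adjusted p under 0.05). Krt6a had the smallest adjusted p (1.22e-05), followed by Krt79 (2.45e-05), Krt17 (0.000415), Krt16 (0.00179), Krt75 (0.00205) and Krt18 (0.0376). Krt7 (0.0696) and Krt19 (0.307) did not pass. Against IFE, 3 of the 8 were higher and 1 was lower in SG, where 2.54% of all genes were higher and 6.96% lower. Against IFE, 5 were higher and 0 lower in HF, where 2.96% were higher and 3.36% lower. Between SG and HF, 0 were higher and 3 lower in SG, where 1.81% of all genes were higher and 3.3% lower. The comparisons share their arrays and so are not independent of each other. The median log2 difference of the 8 was 0.35 for SG against IFE, 1.59 for HF against IFE and -0.996 for SG against HF, beside -0.06, -0.07 and -0.02 over all genes. Counting arrays without overlap in place of the test, 3 of the 8 were higher and 1 lower in SG than in IFE, where 13.2% of all genes were higher and 21.7% lower. In HF against IFE 7 were higher and 0 lower, where 13.5% were higher and 19.3% lower. In SG against HF 1 was higher (Krt79) and 6 were lower, where 12.1% were higher and 17.2% lower.

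**Figure D1:**
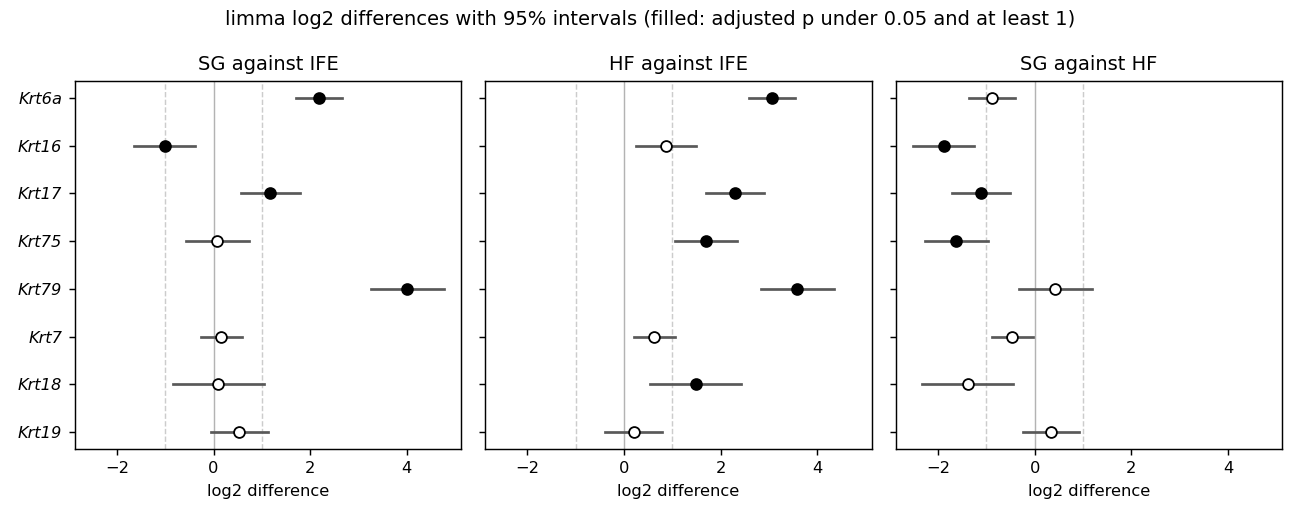
Log2 difference of each keratin (x axis) in the 3 comparisons, with 95% intervals from limma (n = 3 arrays per compartment). Filled circles passed an adjusted p under 0.05 with a log2 difference of at least 1 (dashed lines), open circles did not. Krt79 and Krt6a lie far to the right against IFE, and Krt16 lies left of 0 for SG against IFE.

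Krt6a, the type II keratin of the companion layer and of wounded epidermis, was high in both appendages. Its log2 signal was 11.33, 11.19 and 12.05 on the SG arrays, 12.42, 12.37 and 12.41 on the HF arrays and 9.17, 9.41 and 9.43 on the IFE arrays. No array of a compartment overlapped those of another, and SG replicate 3 lay nearest to HF. Krt6a was 4.54-fold higher in SG than in IFE (2.18 ± 0.22 on the log2 scale, adjusted p = 5.32e-05) and 8.36-fold higher in HF than in IFE (3.06 ± 0.22, adjusted p = 9.87e-06). Between SG and HF its difference was -0.88 ± 0.22 (adjusted p = 0.0245), short of the minimum of 1. It passed without SG replicate 3 (-1.14, adjusted p = 0.00143), and with all arrays kept for the mean of probe sets (-1.03, 0.0147), the brightest probe set (-1.02, 0.0149) and array weights (-1.0, 0.00266). All 4 Krt6a probe sets had the same order of compartment means, HF above SG above IFE, and differed from IFE by 2.17 to 2.68 in SG and by 2.68 to 4.07 in HF.

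Krt16, the type I keratin that pairs with Krt6 proteins in the outer root sheath and in stressed epidermis, did not follow Krt6a. Its log2 signal was 9.56, 8.95 and 9.96 on the SG arrays, 11.03, 11.92 and 11.17 on the HF arrays and 10.57, 10.68 and 10.25 on the IFE arrays. SG was the lowest compartment and HF the highest, with no overlap. Krt16 was 3.69-fold lower in SG than in HF (log2 difference -1.88 ± 0.29, adjusted p = 0.00193). Its log2 difference between SG and IFE was -1.01 ± 0.29 (adjusted p = 0.0251), which passed the threshold by a narrow margin. That call ended without SG replicate 1 (-1.05, adjusted p = 0.0517), SG replicate 2 (-0.74, 0.100), IFE replicate 1 (-0.98, 0.0525) or IFE replicate 2 (-0.92, 0.0959). It also ended with quantile normalization (-0.61, 0.158), median centring (-0.77, 0.0574) and the brightest probe set (-0.56, 0.099). Between HF and IFE the difference of 0.87 ± 0.29 did not pass (adjusted p = 0.0705, 95% interval 0.248 to 1.496). All 4 Krt16 probe sets were negative for SG against IFE, from -1.03 to -0.49, and positive for HF against IFE, from 0.75 to 1.53. Arrays did not overlap in 2 of the 4 for SG against IFE, where 25.2% of all probe sets with 1 gene symbol were lower without overlap, and in all 4 for SG against HF, where 17.9% were lower.

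Krt17, the type I keratin of the outer root sheath, the infundibulum and the injured epidermis, had the same order of compartments as Krt6a. Its log2 signal was 10.34, 10.45 and 10.72 on the SG arrays, 11.21, 12.01 and 11.62 on the HF arrays and 8.70, 9.60 and 9.67 on the IFE arrays. The compartments did not overlap, and IFE replicate 1 was the lowest array. The median was probe set 4718357 on all SG and HF arrays but 4886189 on all IFE arrays. Differences of the gene value from IFE thus compare different probe sets. Within 4718357 the difference from IFE was 0.66 in SG and 1.77 in HF, and within 4886189 it was 1.81 and 2.65. Krt17 was 2.26-fold higher in SG than in IFE (log2 difference 1.18 ± 0.28, adjusted p = 0.0101) and 4.89-fold higher in HF than in IFE (2.29 ± 0.28, adjusted p = 0.000232). The first difference was under the minimum of 1 without IFE replicate 1 (0.87, adjusted p = 0.0217) and with array weights (0.94). Krt17 was 2.16-fold lower in SG than in HF (log2 difference -1.11 ± 0.28, adjusted p = 0.0257), a call that ended without SG replicate 1 (-1.03, 0.0848), SG replicate 2 (-1.08, 0.0836), HF replicate 2 (-0.91, 0.0963) or HF replicate 3 (-1.11, 0.09). It also ended with the brightest probe set (-0.71, 0.145) and with median centring (-0.98). All 7 Krt17 probe sets were above IFE in both appendages, by 0.66 to 2.10 in SG and by 1.71 to 3.42 in HF, with no overlap of arrays in any of the 7. Over all probe sets with 1 gene symbol, 10.3% were higher without overlap in SG than in IFE and 11.7% in HF than in IFE.

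**Figure D2:**
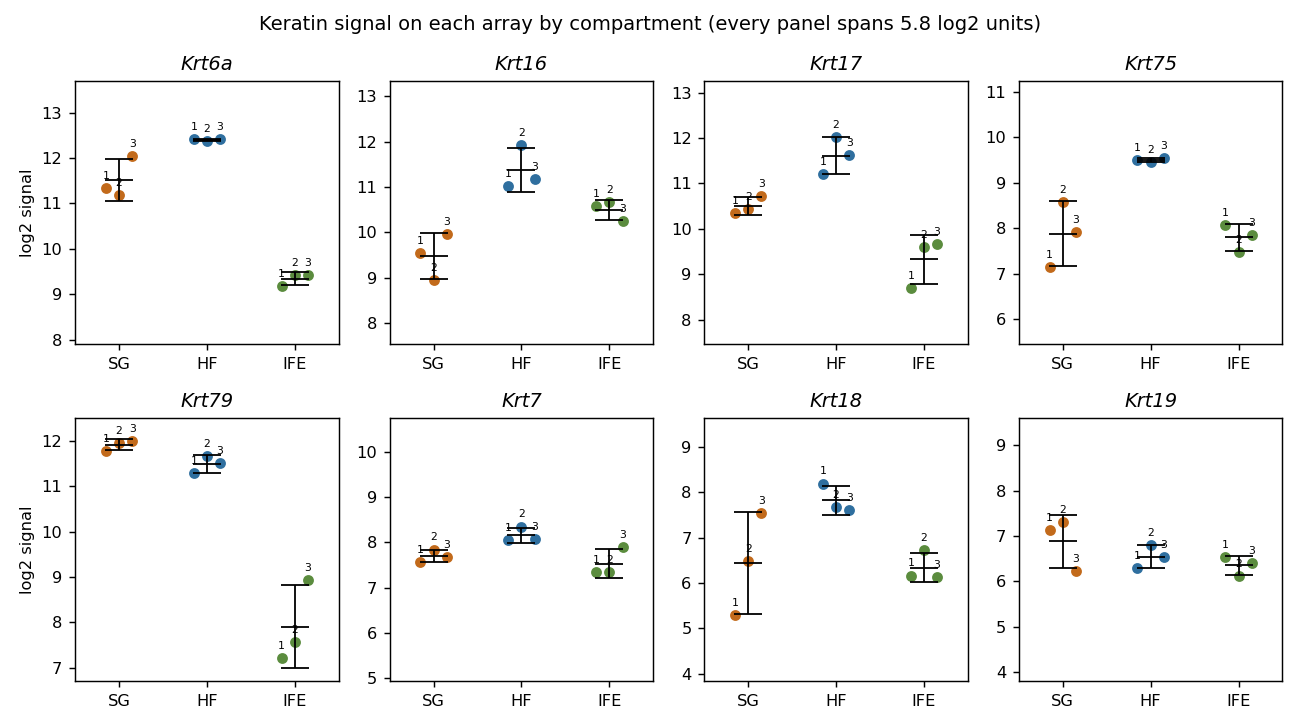
Log2 signal of the 8 measured keratins on each array (points, numbered by replicate) by compartment, with the mean and SD of the 3 arrays (black). Each panel has its own range of the same height. Krt6a, Krt17 and Krt79 were lowest on the IFE arrays, Krt16 was lowest on the SG arrays, and the gene value of Krt75 was highest on the HF arrays.

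Krt75, the type II keratin of the companion layer and hair medulla, was called different between HF and each of the other compartments, as was Krt17. Its log2 signal was 7.15, 8.58 and 7.91 on the SG arrays, 9.50, 9.46 and 9.54 on the HF arrays and 8.06, 7.49 and 7.85 on the IFE arrays. The HF arrays were close together and above all others, whereas the SG arrays were spread over the whole IFE range. Krt75 was 3.24-fold higher in HF than in IFE (1.70 ± 0.30, adjusted p = 0.00287) and 3.07-fold lower in SG than in HF (-1.62 ± 0.30, adjusted p = 0.00528). Its gene value did not separate SG from IFE (0.08 ± 0.30, adjusted p = 0.877, 95% interval -0.57 to 0.73). The median came from probe set 4625433 on replicates 1 and 2 of SG and HF, 5605714 on SG replicate 3 and 4464284 on HF replicate 3. On IFE replicates 1, 2 and 3 it came from 4846152, 5298481 and 4306153. Differences of this gene value from IFE thus compare different probe sets. Within 4625433 the difference from IFE was 1.03 in SG and 2.635 in HF, which were also the medians over the 9 probe sets.

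The probe sets of Krt75 disagreed with each other. For SG against IFE 7 of its 9 probe sets were positive, by 0.31 to 1.28, and probe sets 5242908 and 5605714 were negative, at -1.37 and -1.66. Without overlap of arrays 5 were higher and 2 lower in SG, where 10.3% of all probe sets were higher and 25.2% lower. For HF against IFE 7 were higher and 1 was lower without overlap of arrays, where 11.7% of all probe sets were higher and 21% lower. Probe set 5242908 stood at 7.08, 6.76 and 6.92 on the SG arrays, 8.20, 7.83 and 8.82 on the HF arrays and 8.83, 7.91 and 8.13 on the IFE arrays. Probe set 5605714 stood at 6.02, 7.34 and 7.91 on the SG arrays, 8.01, 7.72 and 7.77 on the HF arrays and 9.69, 8.02 and 8.55 on the IFE arrays. Probe set 5242908 was thus level in HF and IFE (difference -0.006) and 5605714 was lower in HF than in IFE (-0.92), while the other 7 were 2.43 to 3.17 higher in HF than in IFE. The gene value depended on how these were combined. With the brightest probe set the difference was 1.25 for SG against IFE (adjusted p = 0.0147) and 3.16 for HF against IFE (adjusted p = 0.000112). With the mean of all 9 it was 0.46 (adjusted p = 0.220) and 2.08 (adjusted p = 0.000535).

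**Figure D3:**
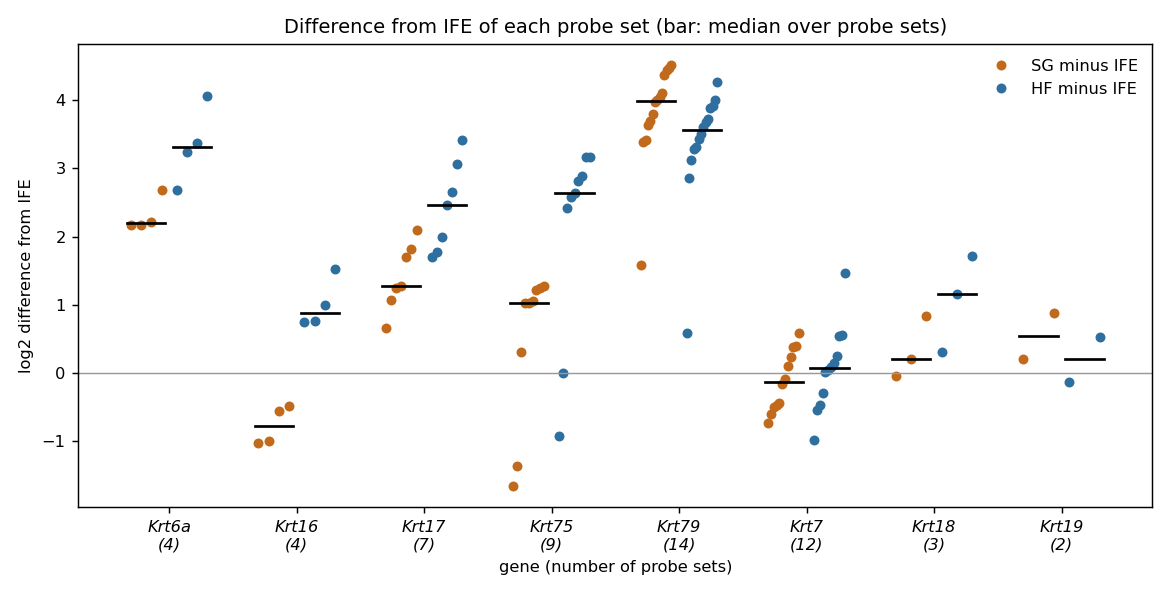
Log2 difference from IFE of every probe set of each keratin, in SG (orange, left of each pair) and HF (blue, right), with the median over probe sets (bar). The probe sets of Krt6a, Krt17 and Krt79 lie above 0 in both, those of Krt16 lie below 0 in SG and above it in HF, 2 of the 9 of Krt75 lie apart from the other 7, and those of Krt7 scatter around 0.

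Krt79, the keratin of the infundibulum and sebaceous duct in mouse skin, showed the largest difference from IFE among the 8. Its log2 signal was 11.78, 11.95 and 12.01 on the SG arrays, 11.28, 11.67 and 11.52 on the HF arrays and 7.21, 7.56 and 8.93 on the IFE arrays. The IFE arrays were below all others and more spread, with IFE replicate 3 the highest of them. Krt79 was 16.1-fold higher in SG than in IFE (4.01 ± 0.35, adjusted p = 1.91e-05) and 12-fold higher in HF than in IFE (3.59 ± 0.35, adjusted p = 5.82e-05). SG and HF were not separated by the test, with a difference of 0.42 ± 0.35 (adjusted p = 0.515, 95% interval -0.33 to 1.18), although the SG arrays all lay above the HF arrays. All 14 probe sets had a higher mean in SG than in HF, by 0.10 to 1.00, and in 8 of the 14 the arrays did not overlap, where 9.91% of all probe sets were higher without overlap. Probes of the same transcript on the same arrays are not independent replicates. Probe set 4480375 behaved differently from the other 13, at 9.77, 8.14 and 9.13 on the SG arrays, 7.96, 8.11 and 7.96 on the HF arrays and 7.82, 7.13 and 7.33 on the IFE arrays. Its difference from IFE was 1.59 in SG and 0.59 in HF, against 3.39 to 4.52 and 2.86 to 4.27 for the other 13.

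Other genes of the infundibulum and duct were set beside Krt79. Of 9 measured genes on a list without Krt79 and Krt17, 4 were called higher in SG and 4 in HF, each against IFE, and 0 lower in either (median log2 difference 0.69 and 0.87). The antimicrobial peptide Defb6 had log2 differences of 4.29 ± 0.29 (adjusted p = 4.37e-06) in SG and 3.36 ± 0.29 in HF, and the protease inhibitor Cst6 of 1.60 ± 0.21 and 1.75 ± 0.21. Plet1 (-0.90 ± 0.42), Cd44 (-0.84 ± 0.22) and Atp6v1c2 (-0.57 ± 0.24) had negative values for SG against IFE that were not called, and Cd44 also for HF against IFE (-0.51 ± 0.22). The summed signal of this list was 13312 to 16976 on SG arrays, 15551 to 16762 on HF arrays and 7377 to 8485 on IFE arrays. IFE replicate 3, where Krt79 was the highest within IFE, had the lowest sum of the 3 IFE arrays (7377), and its log2 signal of Plet1 was 9.77, against 11.83 and 11.28 on IFE replicates 1 and 2. Defb6 (7.30, 7.81 and 8.52 on IFE replicates 1, 2 and 3), Cst6 (10.61, 11.04 and 11.22), Lrig1, Sostdc1 and Atp6v1c2 were highest on IFE replicate 3, as Krt79 was. Klk10 (6.90, 7.51 and 7.27), Gata6 (7.73, 7.22 and 7.40) and Cd44 (11.19, 11.39 and 11.35) were not, nor was Plet1. The median signal of the whole array was 193.7, 233.1 and 234.2 on IFE replicates 1, 2 and 3. The part of duct tissue in the IFE arrays was not tested. On IFE replicate 3 the sebocyte sum (3740) lay between the 2743 and 3781 of IFE replicates 1 and 2.

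Of the measured simple keratins (Krt7, Krt18 and Krt19), Krt18 alone was called in any comparison. The mean log2 signal over the 9 arrays placed Krt7 at the 63.7th percentile of all genes, Krt18 at the 31.7th and Krt19 at the 22.7th. The deposited table carries no detection calls, so it is unknown how far these signals stood above background.

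Krt18, the type I partner of Krt8 in simple epithelia, stood at 5.29, 6.49 and 7.54 on the SG arrays, 8.19, 7.68 and 7.61 on the HF arrays and 6.16, 6.72 and 6.14 on the IFE arrays. The HF arrays were the highest, by a small margin over SG replicate 3, and the SG arrays spread from below the IFE arrays to nearly the HF level. Krt18 was 2.8-fold higher in HF than in IFE (1.48 ± 0.43, adjusted p = 0.0438). This call ended when any of SG replicate 2 (adjusted p = 0.0606), HF replicate 1 (0.165), HF replicate 2 (0.0764), HF replicate 3 (0.0904), IFE replicate 1 (0.0832), IFE replicate 2 (0.0742) or IFE replicate 3 (0.139) was left out, with differences of 1.30 to 1.67. It also ended with the brightest probe set (0.30, adjusted p = 0.36). The difference between SG and HF of -1.39 ± 0.43 did not pass (adjusted p = 0.0678), but did without SG replicate 3 (-1.93, adjusted p = 0.00285). Krt18 rested on 3 probe sets that disagreed: the brightest, 4470789, stood at 9.67, 10.13 and 9.72 on the SG arrays, 9.33, 9.44 and 9.17 on the HF arrays and 9.29, 8.86 and 8.89 on the IFE arrays. It was thus highest in SG, while the other 2 were highest in HF, by 1.16 and 1.71 over IFE. The median of Krt18 came from probe set 5172300 on SG replicates 1 and 2 and IFE replicate 1, and from 4820438 on the other arrays.

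Merkel cell genes were listed because Krt18 is a keratin of those cells. Of 11 measured, 0 were higher or lower in HF than in IFE. In SG against IFE 1 was higher, the transcription factor Sox2 (1.04 ± 0.18), a gene also known from other skin cells. Their summed signal was 2136 to 2335 on SG arrays, 2187 to 2543 on HF arrays and 1898 to 2009 on IFE arrays. Krt20, a Merkel cell keratin, stood at 5.72 to 6.79 over the 9 arrays. Their part in the Krt18 result was not tested.

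Krt7, a type II keratin of glandular epithelia, stood at 7.57, 7.84 and 7.68 on the SG arrays, 8.05, 8.35 and 8.08 on the HF arrays and 7.35, 7.34 and 7.90 on the IFE arrays. The HF arrays were above all others, but the differences were small. They came to 0.63 ± 0.19 for HF against IFE (adjusted p = 0.0569, 95% interval 0.20 to 1.05), 0.17 ± 0.19 for SG against IFE (adjusted p = 0.581) and -0.46 ± 0.19 for SG against HF (adjusted p = 0.175). Its 12 probe sets did not share a direction, with 8 positive and 4 negative for HF against IFE. They ran from -0.99 to 1.47, with a median of 0.065. Without overlap of arrays 1 was higher and 1 lower in HF, where 11.7% of all probe sets were higher and 21% lower. With the mean of probe sets the difference of Krt7 for HF against IFE was 0.067 (limma adjusted p = 0.816). The probe sets that gave the median of Krt7 differed among arrays.

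Krt19, a short type I keratin of simple epithelia and of the follicle bulge, stood at 7.14, 7.30 and 6.22 on the SG arrays, 6.30, 6.80 and 6.53 on the HF arrays and 6.53, 6.11 and 6.41 on the IFE arrays. The compartments overlapped, and SG replicates 1 and 2 were the highest arrays while SG replicate 3 lay within the IFE range. No comparison passed, with 0.54 ± 0.27 for SG against IFE (adjusted p = 0.176, 95% interval -0.05 to 1.12), 0.20 ± 0.27 for HF against IFE (0.7, -0.39 to 0.78) and 0.34 ± 0.27 for SG against HF (0.496, -0.24 to 0.93). Genes of the bulge and outer root sheath were higher in HF than in IFE for 10 of 15 measured and lower for 0, among them Cd200 (3.23 ± 0.17), Lgr5 (2.23 ± 0.20) and Lhx2 (2.19 ± 0.20). In SG against IFE 7 of the 15 were higher and 1 was lower, with Cd200 at 3.65 ± 0.17, Lgr5 at 1.80 ± 0.20 and Lhx2 at 1.90 ± 0.20. Between SG and HF 0 of the 15 were called.

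Because filaments need both types, the log2 difference between a type II and a type I keratin on the same array was followed over the compartments. A change of this quantity can arise where both genes did not change equally, or where another probe set gave the median. For Krt17 the probe set that gave the median differed between IFE and the other compartments, as described above. The probe sets that gave the median also differed among arrays for Krt6a, Krt75, Krt79, Krt7 and Krt18. For Krt16 and Krt19 they were the same on all arrays. The level of this quantity has no meaning across different probes. This measure was chosen after the data had been seen. All 16 pairs of 4 type II and 4 type I members were tested with an exact permutation test over the 1680 assignments of 9 arrays to 3 compartments, with adjustment over the 16. Pairs that share a gene are not independent, and the test cannot go below a p of 0.00357.

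Krt6a minus Krt16 was 1.78, 2.24 and 2.09 on the SG arrays, 1.40, 0.45 and 1.25 on the HF arrays and -1.40, -1.26 and -0.82 on the IFE arrays (exact permutation p = 0.00357, adjusted p = 0.0114). Relative to Krt16, Krt6a was thus higher on every SG and HF array than on any IFE array, and higher on every SG array than on any HF array. Krt6a minus Krt17 averaged 1.02 ± 0.29 in SG, 0.79 ± 0.43 in HF and 0.01 ± 0.40 in IFE (SD, n = 3 each), which did not pass (exact permutation p = 0.0607, adjusted p = 0.0883) but did with the brightest probe set (adjusted p = 0.04). Krt79 minus Krt17 was 1.44, 1.51 and 1.29 on the SG arrays, 0.08, -0.35 and -0.10 on the HF arrays and -1.49, -2.04 and -0.74 on the IFE arrays (exact permutation p = 0.00357, adjusted p = 0.0114). The compartments did not overlap, with SG above HF above IFE. Krt75 minus Krt17 averaged -2.62 ± 0.68 in SG, -2.12 ± 0.42 in HF and -1.53 ± 0.78 in IFE and did not pass (exact permutation p = 0.189, adjusted p = 0.233), but did with the brightest probe set (adjusted p = 0.0467). In all, 8 of the 16 pairs passed at an adjusted p under 0.05. Except for Krt75 minus Krt19 and Krt7 minus Krt17, these contain Krt6a or Krt79, the members with the smallest adjusted p in the F test. The share of passing pairs among other genes was not computed, and 24.5% of all single genes passed the F test. Over 14 alternatives the adjusted p ran from 0.00816 to 0.0381 for Krt6a minus Krt16 and for Krt79 minus Krt17, from 0.04 to 0.177 for Krt6a minus Krt17 and from 0.0467 to 0.61 for Krt75 minus Krt17.

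**Figure D4:**
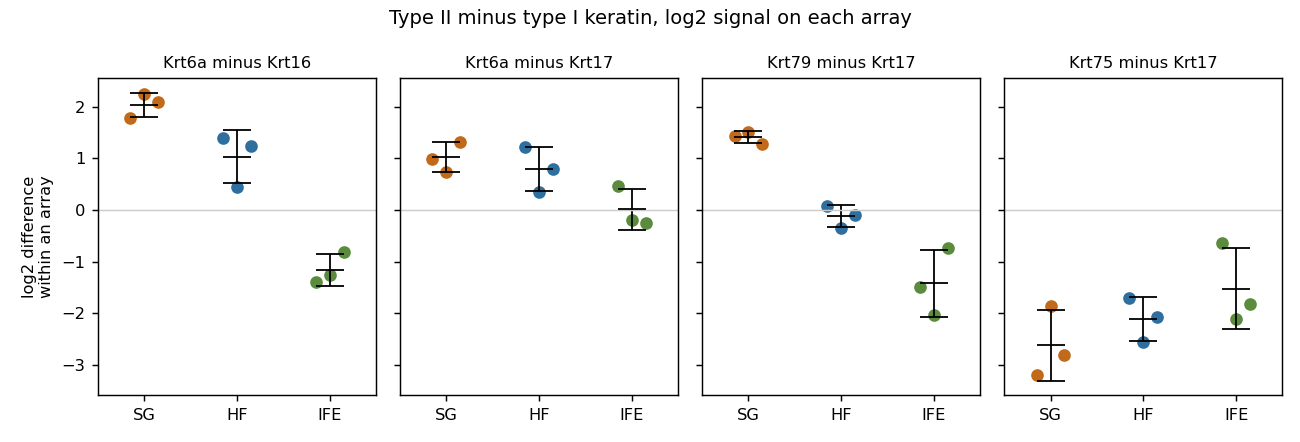
Log2 signal of a type II keratin minus that of a type I keratin on each array (points), by compartment, with the mean and SD of 3 arrays (black). Krt6a minus Krt16 and Krt79 minus Krt17 separate all 3 compartments, Krt6a minus Krt17 and Krt75 minus Krt17 do not. The position of 0 has no meaning, because the genes are measured by different probes.

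Krt6a, Krt16 and Krt17 are also wound keratins, so genes known to accompany them in injured or inflamed epidermis were set beside them. Of 23 measured, 1 was higher and 10 were lower in SG than in IFE, with a median log2 difference of -0.80. Il1f9, an interleukin 1 family cytokine, was at -3.69 ± 0.20 (adjusted p = 1.18e-06), Il1a, an epidermal alarmin, at -2.69 ± 0.26 and the EGF receptor ligand Ereg at -3.43 ± 0.36, while the calcium-binding protein S100a8 was at 1.41 ± 0.38. In HF against IFE 4 were higher and 6 lower, with Il1f9 at -3.42 ± 0.20 and S100a7a, another calcium-binding protein, at 3.44 ± 0.40. The summed signal of the list was 4498 to 4761 on SG arrays, 5264 to 6895 on HF arrays and 11811 to 19111 on IFE arrays. IFE replicate 3 had the lowest of the IFE sums and the lowest Krt16 signal of the IFE arrays.

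Of 16 measured immediate early genes, which can be induced while tissue is handled, 11 were lower and 0 higher when SG was set against IFE. In HF against IFE 6 were lower and 1 higher. Their summed signal was 5177 to 7265 on SG arrays, 8496 to 11992 on HF arrays and 12187 to 20262 on IFE arrays. Both sums were lowest in SG, as was Krt16, whereas Krt6a and Krt17 were lowest in IFE, where both sums were highest. The part of wounding or handling in the keratin levels was not tested.

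Other keratins of epidermis and simple epithelia were taken from a list of their own. Of 15 measured, 2 were higher and 2 lower in SG than in IFE. Krt15, a type I keratin of basal cells and the bulge, was higher by 1.65 ± 0.19 and the suprabasal Krt77 by 2.04 ± 0.28, while Krt2, the keratin of the upper epidermis, was at -1.49 ± 0.30 and Krt23 at -1.64 ± 0.37. Krt5 and Krt14, the basal pair, stood at 12.12 to 12.93 and 12.72 to 13.35 on the SG arrays, 12.34 to 12.40 and 12.56 to 13.10 on the HF arrays and 12.50 to 12.87 and 12.78 to 12.92 on the IFE arrays. Neither was called in any comparison, and the SG ranges overlapped those of HF and IFE for both genes. In HF against IFE 2 were higher and 2 lower, and between SG and HF only Krt23 was called among the 15 (-2.46 ± 0.37).

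Of 14 measured genes that link keratins to junctions or bind them, 1 was called higher in SG against IFE, 4 lower and 9 neither (median log2 difference -0.88). The desmosomal plaque protein Pkp2 was higher by 1.62 ± 0.18 in SG and 1.65 ± 0.18 in HF, while the plaque proteins Ppl (-1.93 ± 0.21) and Pkp1 (-1.45 ± 0.20) were lower in SG than in IFE. In HF against IFE 1 was higher and 1 lower. Genes often expressed with simple keratins showed 0 higher and 2 lower of 15 in SG against IFE, namely Cdh1 (-1.44 ± 0.16) and the transcription factor Ehf (-1.77 ± 0.24). In HF against IFE 2 of the 15 were higher, the claudin Cldn8 (1.38 ± 0.26) and the protease St14 (1.38 ± 0.30), and 0 lower. Of 15 transcription factors known to act on keratin genes or in these lineages, 0 were higher and 6 lower in SG than in IFE, led by Grhl3 (-2.45 ± 0.21), Klf4 (-1.50 ± 0.19) and Nfe2l2 (-1.36 ± 0.20). In HF 1 was higher, Sox9 of the outer root sheath (1.08 ± 0.16), and 2 were lower than in IFE.

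Over the 9 arrays, Krt6a and Krt17 had a Pearson correlation of 0.93 and Krt6a and Krt79 of 0.90, whereas Krt6a and Krt16 had one of 0.25. These are descriptions over arrays that form 3 compartments and share their scaling. Among all other named genes, those with the highest correlation were Egfl6 (0.99), the protease inhibitor Spink12 (0.98) and Sprr4 (0.98) for Krt6a. They were Tbc1d10b (0.97), Tnfaip2 (0.97) and Cdk5r1 (0.96) for Krt16, and Nebl, Sulf2 and the actin cross-linker Actn1 (0.98 to 0.99) for Krt17. For Krt79 they were the semaphorin Sema3e (0.99), Defb6 (0.99) and Enpp1 (0.99). For Krt75 they were Syp, Hao1 and Sorcs2 (all 0.96), and for Krt18 Gpr50 (0.96), Pgam5 (0.96) and Fbxo32 (0.95). A high correlation does not mean a difference of like size. For HF against IFE the log2 difference was 0.20 for Tbc1d10b, 0.39 for Syp and 0.41 for Pgam5, but 3.36 for Defb6 and 4.0 for Sprr4.

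In pooled dissections a smaller number of cells of a type cannot be told apart from less RNA per cell, and this holds for every level given here.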

How the data were processed

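RNA of pooled dissected pieces was amplified, biotin-labelled and hybridised to an exon array, per the labels' protocols. The authors deposited an intensity per probe set on a linear scale for 154736 probe sets. RMA, Affymetrix Power Tools and mm9 are named in the submitters' processing notes, without roles or filters. Array medians ran from 175.9 to 234.2, and no further scaling was applied.

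Log2 values were taken without a pseudocount. The platform annotation gave 146964 probe sets a single symbol, and a gene's value is the median over these, which lets different probe sets set it on different arrays. All 9 arrays entered a single limma fit (version 3.58.1, R 4.3.3) with a mean per compartment, followed by eBayes. All members were named. Genes of other lists were named by smallest p, and similar genes by Pearson correlation. Code was tested on simulated data. Members, lists and tests were chosen with earlier results of these data known. The keratin differences within an array were added after the data were seen. P-values measure the spread between samples labelled biological replicates, and the number of arrays limits the precision. The fit did not use the replicate numbers. Deviations of same-numbered arrays correlated at -0.02 to 0.23, which does not settle whether these numbers pair the samples.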

Additional observations from a re-analysis of the deposited data

How the results depend on the processing

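The 8 keratins were refitted under 23 alternative settings, except that Krt18 and Krt19 fell away where the dimmer 50% of genes were left out. Of the 546 values of a gene in a comparison, 487 kept their direction and side of the threshold, and 36 lost a call. Another 12 gained a call and 11 changed sign, all 11 without a call. Krt6a and Krt79 against IFE, in SG and in HF, and Krt17 in HF against IFE kept their calls under all 23. With the replicate block the counts of called keratins were 4 for SG against IFE, 5 for HF against IFE and 3 for SG against HF. The F test gave 6. These were as without the block, and no call changed. The limma adjusted p of Krt17 was 0.00237 with the block for SG against IFE, in place of 0.0101. For SG against HF it was 0.00623 in place of 0.0257. Leaving out single arrays gave counts of 2 to 4, 4 to 5, 2 to 5 and 5 to 7 in the same order. The 2 called for SG against IFE came without IFE replicate 1 (Krt16 and Krt17 were lost), and the 5 for SG against HF without SG replicate 3. With SG replicate 3 and HF replicate 2 both left out the counts were 4, 5, 4 and 7. A minimum log2 difference of 2 gave 2, 3 and 0 calls, by construction, and array weights gave 5 for SG against HF, where the cause was not tested. Sign changes of uncalled values were for Krt7 with the mean of probe sets (-0.11, SG against IFE) and the brightest probe set (-0.44 for SG against IFE, -0.47 for HF against IFE, 0.028 for SG against HF), for Krt19 (-0.14, HF against IFE) and Krt18 (0.53, SG against HF) with the brightest probe set, for Krt75 in SG against IFE without SG replicate 2 (-0.27) or IFE replicate 2 (-0.08; range -0.27 to 0.44 over single arrays left out), and for Krt18 in SG against IFE without SG replicate 3 (-0.45, also with HF replicate 2 left out) or IFE replicate 3 (-0.003; range -0.45 to 0.67). Krt16 in SG against IFE also fell short of the minimum difference with the mean of probe sets (-0.77) and with 16 added before the log (-0.99). Krt16 in HF against IFE was called with quantile normalization (1.18) and the mean of probe sets (1.01). The letter that ends the array names, as a block, ended the calls of Krt16 in SG against IFE, Krt18 in HF against IFE and Krt17 in SG against HF. Median centring moved the median of all genes for SG against IFE from -0.06 to 0.18, with 53% of called genes higher in place of 26.7%, and quantile normalization gave 56.1%. For HF against IFE, 58.2% with quantile normalization and 56.9% with median centring stood in place of 46.8%, and for SG against HF 50.1% with either in place of 35.4%. Of the keratin differences within an array, Krt6a minus Krt18, Krt6a minus Krt19, Krt75 minus Krt19 and Krt7 minus Krt17 passed as reported and lost this under some alternatives (highest adjusted p 0.0714, 0.0762, 0.0635 and 0.0508), while the other 4 that passed kept it under all 14.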
